A study of Mus musculus with 6 samples.

Results

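Ion and metal carriers of the solute carrier superfamily were examined in 3 cell populations sorted from the surface epithelium of the airways of C57BL/6 mice. The set was fixed by gene symbol alone: it holds every row of the authors' per-gene expression table in the families Slc4a, Slc8a, Slc9a, Slc11a, Slc12a, Slc20a, Slc24a, Slc26a, Slc30a, Slc34a, Slc39a, Slc40a or Slc41a, written as the family prefix followed by digits. This gave 82 of the 20315 named genes. Slc4a1ap, Slc9a3r1 and Slc9a3r2 carry such a prefix with a further suffix, encode other proteins and were left out. The samples were primary cells from C57BL/6 mice for which the labels name no allele, treatment or age, with 2 arrays per cell type. All 3 gates took EpCAM-positive cells: the basal gate added binding of GSIβ4, the club (secretory) gate SSEA1, and the ciliated gate CD24 without GSIβ4. The labels call the 2 arrays of a type biological replicates without naming the animals, so the p-values measure the spread between these samples, which may be partly technical.

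These carriers move ions without spending ATP directly, many of them by coupling 1 solute to the gradient of another. In airway epithelium, sodium-coupled chloride and bicarbonate carriers of the basolateral membrane load the cell with the anions that apical channels release into the airway surface liquid. Sodium-proton exchangers set the pH of the cytosol and of endosomes and the Golgi. The Slc39a (ZIP) family brings zinc and related metals into the cytosol, the Slc30a (ZnT) family takes zinc out of it, and the Slc11a and Slc40a families import and export iron.

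All levels are RMA log2 values, on which 1 unit is a 2-fold difference, and they are compared between cell types for 1 gene at a time and not between genes. Differences are given ± the standard error of a linear model (limma) fitted to all genes and all 6 arrays. A difference counts as called when its p, adjusted by Benjamini-Hochberg over the 20315 genes, lay under 0.05. The arrays were alike in scale, with gene medians of 6.79 to 6.92, and the Pearson correlation across genes between the arrays of a type was 0.975 for basal, 0.989 for ciliated and 0.987 for club cells. All 8 basal markers were called higher in basal than in either other type, and all 9 ciliated markers higher in ciliated than in either other type. Of 8 club markers, 5 were called higher in club than in basal cells and 3 higher in club than in ciliated cells. The club markers were not confined to the club arrays: 4 of 8 were called higher in ciliated than in basal cells, and Scgb1a1, which defines club cells, was at 14.20 and 13.87 in ciliated, 14.31 and 13.98 in club and 13.05 and 13.02 in basal cells. Goblet cell markers stood with club cells: 4 of 5 were called higher there in both comparisons, and the list's mean was 8.48 and 8.91 on the club arrays against 6.56 to 7.51 on the other 4. The means of the neuroendocrine, endothelial and smooth muscle lists differed between any 2 arrays by less than 0.5, and no member of these lists was called. In sorted bulk samples, fewer cells of a type and less RNA per cell cannot be told apart.

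Of the 82 carriers, 33 were called in at least 1 of the 3 comparisons (40.2%, against 24% of all genes). Between ciliated and basal cells 20 differed (24.4%, against 17.6% of all genes), 11 higher (against 9.29% of all genes) and 9 lower (8.28%) in ciliated cells. Between club and basal cells 15 differed (18.3%, against 8.02%), 10 higher (against 4.35%) and 5 lower (3.67%) in club cells. Between ciliated and club cells 19 differed (23.2%, against 15.4%), 7 higher (against 7.93%) and 12 lower (7.46%) in ciliated cells. The arrays of the types compared did not overlap for 50 of the 82 carriers between ciliated and basal cells (61%, against 53% of all genes), for 57 between club and basal cells (69.5%, against 51.4%) and for 57 between ciliated and club cells (69.5%, against 59.3%). The median size of the difference was 0.235 log2 units for the carriers and 0.236 for all genes in ciliated minus basal, 0.263 and 0.228 in club minus basal, and 0.326 and 0.240 in ciliated minus club. Without ciliated replicate 1 or 2, the number higher in ciliated than in basal cells fell to 7 in both cases, and the number lower there to 3 and 2. In ciliated minus club, the same omissions left 2 and 3 carriers higher and 7 and 5 lower, and the omission of club replicate 1 left 2 higher. The count of 5 carriers lower in club than in basal cells fell on leaving out any basal or club array and was 2 with the club and basal arrays alone. For a comparison of 2 types, leaving out 1 array of the third type gives the same fit as those 2 types alone. Losses in these fits are therefore 1 result and do not show dependence on the array left out.

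**Figure D1:**
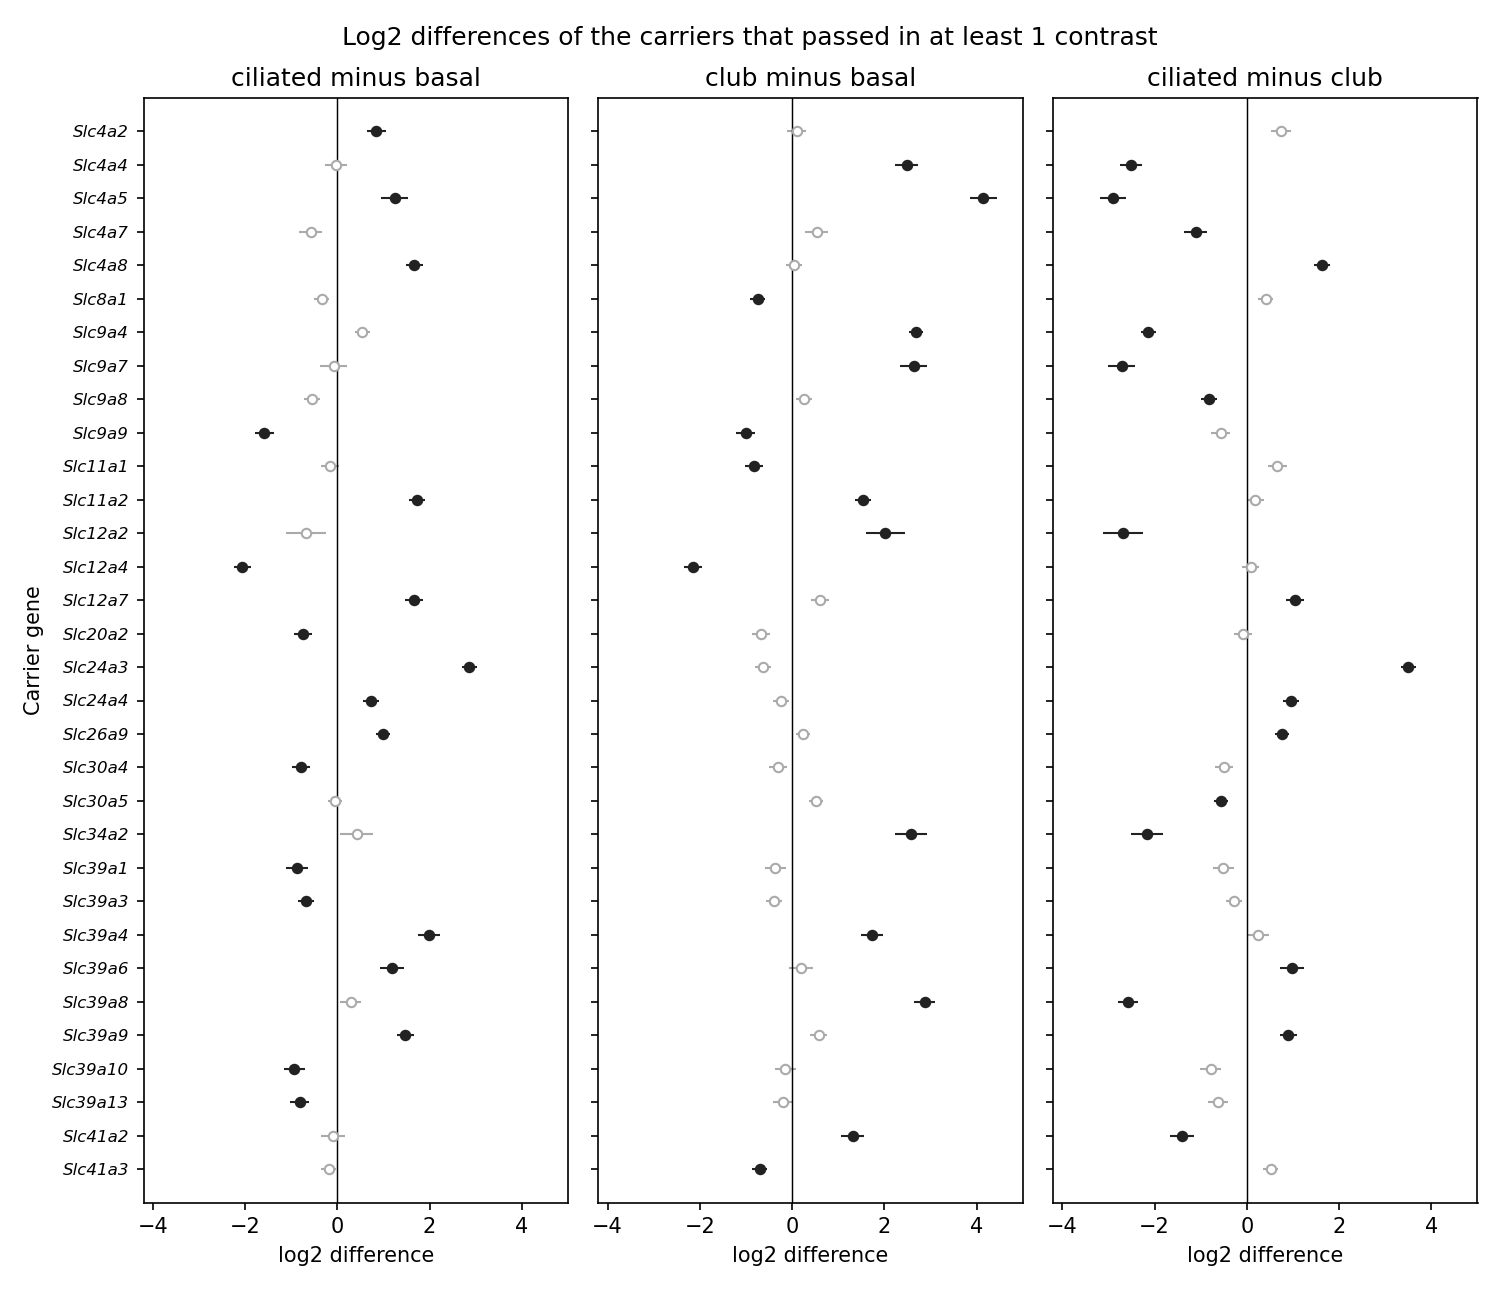
Log2 difference in expression (horizontal axis, RMA log2 units) of 32 of the 33 carriers called in at least 1 comparison (vertical axis) in 3 panels, for ciliated minus basal cells, for club minus basal cells and for ciliated minus club cells. Points are estimates from 2 arrays per type, bars are ± 1 standard error of the fit, filled points passed at an adjusted p under 0.05 and open points did not. Slc4a5 has the only point above 4, in club minus basal, and is the only carrier filled in all 3 panels.

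Club cells had the largest group of carriers set apart from both other types. By the rule that both comparisons pass and the smaller difference is at least 1 log2 unit, 8 carriers were higher in club cells (9.76%, against 1.47% of all genes), 3 in ciliated cells (3.66%, against 4.76%) and 2 in basal cells (2.44%, against 1.81%). The club group held the bicarbonate carriers Slc4a4 and Slc4a5, the sodium-proton exchangers Slc9a4 and Slc9a7, the chloride loader Slc12a2, the phosphate carrier Slc34a2, the metal carrier Slc39a8 and the magnesium carrier Slc41a2. Goblet markers stood with this group (mean 8.48 and 8.91 in club cells, above), with Muc5ac at 8.11 and 8.71 in club cells and 6.09 to 6.81 on the other arrays. Of 6 submucosal gland markers, 4 were called higher in club than in basal cells and 1 higher in club than in ciliated cells, with list means of 10.44 and 10.66 in club, 9.58 and 9.10 in ciliated and 7.78 and 7.99 in basal cells; the gland peroxidase gene Lpo was at 5.84 to 6.14 on all 6 arrays. Of 7 tuft cell markers, 2 were called higher in club than in ciliated cells, with means of 7.69 and 7.20 in club, 6.80 and 6.69 in ciliated and 7.05 and 7.10 in basal cells. The part of these cell types in the club differences was not tested, and marker genes named singly here and below were chosen after their values were seen. The club count was 5 without ciliated replicate 1 or 2, and the basal count was 1 without basal replicate 2 or either club array. The ciliated count was 2 without ciliated replicate 1 or club replicate 1 and otherwise 3 or 4 when an array was left out.

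**Figure D2:**
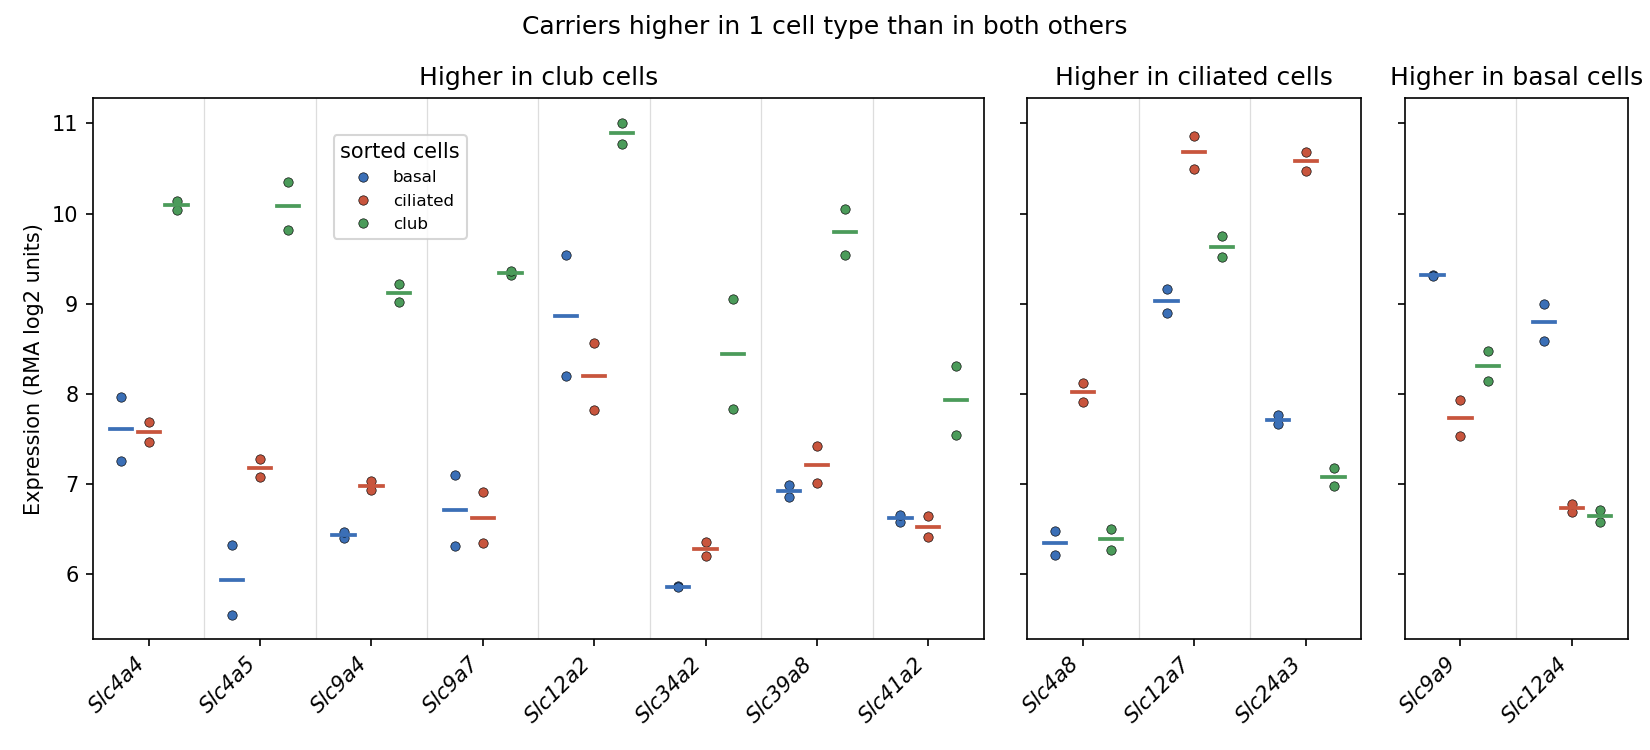
Expression (vertical axis, RMA log2 units) of the 13 carriers that were higher in 1 cell type than in both others. Each point is 1 array, each horizontal bar the mean of 2 arrays, and colours give the sorted cell type. The panels from left to right show the 8 club, 3 ciliated and 2 basal carriers, and in every column the arrays of the leading type lie above the other 4.

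The 2 electrogenic sodium bicarbonate cotransporters were highest in club cells. Slc4a4, the electrogenic cotransporter NBCe1 that brings bicarbonate into secretory epithelia, read 7.96 and 7.26 on the basal arrays, 7.69 and 7.47 on the ciliated arrays and 10.14 and 10.04 on the club arrays. Both club arrays were more than 2 units above every other array. The level was higher in club than in basal cells by 2.48 ± 0.24 (5.58-fold, adjusted p = 0.0012) and than in ciliated cells by 2.51 ± 0.24 (5.70-fold, adjusted p = 0.000446). Slc4a5, the related electrogenic cotransporter NBCe2, read 6.32 and 5.55 in basal, 7.28 and 7.08 in ciliated and 9.81 and 10.35 in club cells. The 3 types did not overlap and stood in the order basal, ciliated, club. The difference from basal cells of 4.15 ± 0.29 (17.7-fold, adjusted p = 0.000329) was the largest of any carrier in any comparison, and club exceeded ciliated cells by 2.90 ± 0.29 (adjusted p = 0.000524). The smaller step from basal to ciliated cells passed on 6 arrays (1.24 ± 0.29, adjusted p = 0.0236) and was lost on leaving out basal replicate 2 (0.86, adjusted p = 0.0639) or either ciliated array (adjusted p = 0.152 and 0.111 for replicates 1 and 2).

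Other bicarbonate carriers had different profiles. Slc4a8, a sodium-driven chloride-bicarbonate exchanger, read 6.21 and 6.48 in basal, 7.91 and 8.12 in ciliated and 6.50 and 6.27 in club cells. It was higher in ciliated than in basal cells by 1.67 ± 0.18 (adjusted p = 0.000612) and than in club cells by 1.63 ± 0.18 (adjusted p = 0.000846), while basal and club arrays overlapped. Slc4a2, the chloride-bicarbonate exchanger AE2 that exports bicarbonate, read 8.72 and 8.90 in basal, 9.78 and 9.53 in ciliated and 8.66 and 9.16 in club cells. Its difference between ciliated and basal cells passed (0.84 ± 0.21, adjusted p = 0.0318) and that between ciliated and club cells did not (0.75 ± 0.21, adjusted p = 0.0567). The former ended without basal replicate 1 or either ciliated array and with an intensity trend in the variance prior. Slc4a7, the electroneutral sodium bicarbonate cotransporter NBCn1, read 8.44 and 7.76 in basal, 7.52 and 7.53 in ciliated and 8.84 and 8.44 in club cells. It was higher in club than in ciliated cells by 1.11 ± 0.25 (adjusted p = 0.0232), which ended without either ciliated array or club replicate 1 (adjusted p = 0.134 to 0.14). The remaining 5 of 10 family members, among them the erythrocyte anion exchanger Slc4a1, had mean levels of 4.84 to 7.62 and differences of at most 0.44. The 5 called members stand against 24% of all genes called in at least 1 comparison.

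Of the 9 members of the cation-chloride cotransporter family Slc12a, 3 were called, against 24% of all genes called in at least 1 comparison. Each of the 3 was highest in a different cell type. Slc12a2, the sodium-potassium-chloride cotransporter NKCC1 that loads secretory cells with chloride, read 9.54 and 8.20 in basal, 8.57 and 7.82 in ciliated and 11.01 and 10.77 in club cells. Club arrays were the highest, and the 2 basal arrays lay more than 1 unit apart. Club exceeded ciliated cells by 2.69 ± 0.43 (6.47-fold, adjusted p = 0.00523), a call that ended without ciliated replicate 2 (adjusted p = 0.0614). Club exceeded basal cells by 2.02 ± 0.43 (adjusted p = 0.0322), which ended without either club array and in a fit of the club and basal arrays alone (adjusted p = 0.0663). Without basal replicate 1 this difference was 2.69 and without basal replicate 2 it was 1.35.

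Slc12a4 and Slc12a7, potassium-chloride cotransporters that carry chloride out of cells, were high elsewhere. Slc12a4 (KCC1) read 8.59 and 9.0 in basal, 6.69 and 6.78 in ciliated and 6.58 and 6.71 in club cells. Basal cells were higher than ciliated cells by 2.06 ± 0.18 (4.17-fold, adjusted p = 0.000236) and than club cells by 2.15 ± 0.18 (4.43-fold, adjusted p = 0.000749). Slc12a7 (KCC4) read 8.89 and 9.16 in basal, 10.86 and 10.50 in ciliated and 9.51 and 9.75 in club cells, so that the 3 types did not overlap. Ciliated cells exceeded basal cells by 1.65 ± 0.20 (3.14-fold, adjusted p = 0.00103) and club cells by 1.05 ± 0.20 (adjusted p = 0.0107). The comparison with club cells ended without ciliated replicate 1 (adjusted p = 0.0884) or club replicate 1 (adjusted p = 0.0776). The other 6 members did not pass. They include the kidney cotransporters Slc12a1, at 4.97 to 5.46 on the 6 arrays, and Slc12a3, at 5.80 to 6.28. Beside Slc12a4 in basal cells, the fibroblast-enriched proteoglycan gene Dcn was the 1 of 6 fibroblast markers that was called, at 12.30 and 12.13 in basal cells and 6.64 to 8.03 on the other 4 arrays. The mean of the 6 markers was 7.29 and 7.30 on the basal arrays and 6.37 to 6.52 on the others, and Lum was at 3.99 to 4.18 on all 6. Its part in the Slc12a4 difference was not tested.

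**Figure D3:**
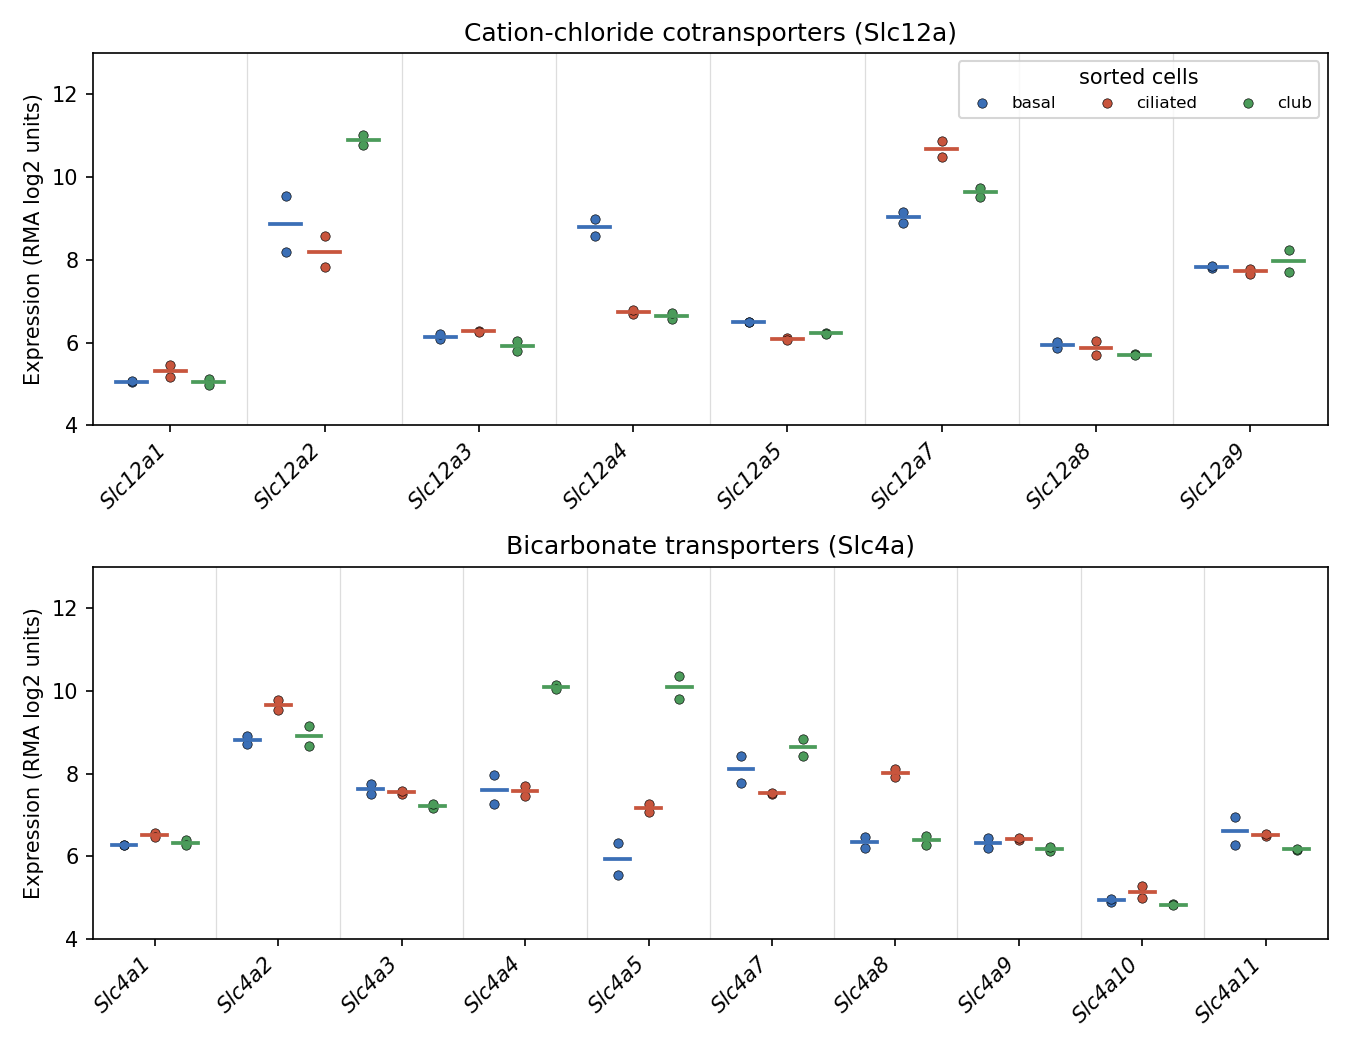
Expression (vertical axis, RMA log2 units) of 8 of the 9 Slc12a and all 10 Slc4a carriers on each array (points), with the mean of 2 arrays as a bar and the sorted cell type as colour. Slc12a2 is highest in club, Slc12a4 in basal and Slc12a7 in ciliated cells, and Slc4a4 and Slc4a5 stand out in club cells and Slc4a8 in ciliated cells.

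Among calcium exchangers, Slc24a3 had the largest differences, and it was high in ciliated cells. This potassium-dependent sodium-calcium exchanger read 7.66 and 7.76 in basal, 10.68 and 10.47 in ciliated and 7.18 and 6.98 in club cells. It was higher in ciliated than in basal cells by 2.86 ± 0.16 (7.28-fold, adjusted p = 2.64e-05) and than in club cells by 3.50 ± 0.16 (11.3-fold, adjusted p = 1.49e-05). Its relative Slc24a4 had the same direction at a lower size, at 6.49 and 6.61 in ciliated cells against 5.64 and 5.98 in basal and 5.52 and 5.63 in club cells. Both Slc24a4 differences passed on 6 arrays (0.73 ± 0.17, adjusted p = 0.0254, and 0.97 ± 0.17, adjusted p = 0.00897) and ended without either ciliated array, the first also without basal replicate 1 and the second also without club replicate 1. Slc8a1, the sodium-calcium exchanger NCX1, was higher in basal than in club cells by 0.75 ± 0.16 (adjusted p = 0.0354), at 6.22 and 6.22 against 5.33 and 5.61. That call was lost on leaving out any basal or club array, under each other scaling and in a fit of those 2 types alone. Slc8a2, at 6.28 to 7.01 on the 6 arrays, and the other 4 members of both families passed in no comparison.

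The 5-prime regions of the 3 ciliated carriers that passed the 1-unit rule are shown because their profile is that of ciliated cells, whose RFX and FOXJ1 transcription factors drive motile cilium genes. The RefSeq promoter table of GRCm38.p6, which gives 250 bases before to 50 bases after each gene start, held 63 of the 82 carriers, among them the 3 ciliated, both basal and 6 of the 8 club carriers. A pair of motifs was searched on both strands: GTTGCC, 1 arm of the palindrome that RFX factors bind, and TGTTTAC, a forkhead site; they share no overlap here. GTTGCC or its complement lay in 12.5% of all 32851 windows of this length and in 14.1% of the 27025 genes. It was found in 2 of 3 ciliated carriers, in 1 of 2 basal carriers and in 0 of 6 club carriers, and in 10 of all 63 carriers with a window, a share near that of all genes. TGTTTAC or its complement lay in 4.05% of genes and in none of these 11. In the sequences, written 5′ to 3′ on the strand of the gene, capitals mark GTTGCC or its complement GGCAAC, which starts 126 bases before the gene start in Slc4a8 and 135 bases before it in Slc12a7. The basal carrier Slc12a4 is printed beside them because it holds the same 6 letters 178 bases before its start and had the opposite profile. Slc12a7 and Slc24a3 each have 2 windows in the table, of which the one farther upstream is printed; the other Slc12a7 window holds the same match and the other Slc24a3 window holds none. A match is a description of these letters only. The windows lie at chr15:100761497-100761796 (plus strand) for Slc4a8, chr13:73763410-73763709 (plus strand) for Slc12a7, chr2:145167525-145167824 (plus strand) for Slc24a3 and chr8:105966066-105966365 (minus strand) for Slc12a4, all in GRCm38.p6.
Slc4a8: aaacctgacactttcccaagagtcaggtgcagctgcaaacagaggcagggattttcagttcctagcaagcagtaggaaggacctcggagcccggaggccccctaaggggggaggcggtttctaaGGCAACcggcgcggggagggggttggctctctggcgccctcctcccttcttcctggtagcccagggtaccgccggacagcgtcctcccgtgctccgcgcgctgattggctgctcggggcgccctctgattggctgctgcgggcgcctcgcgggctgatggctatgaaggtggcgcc
Slc12a7: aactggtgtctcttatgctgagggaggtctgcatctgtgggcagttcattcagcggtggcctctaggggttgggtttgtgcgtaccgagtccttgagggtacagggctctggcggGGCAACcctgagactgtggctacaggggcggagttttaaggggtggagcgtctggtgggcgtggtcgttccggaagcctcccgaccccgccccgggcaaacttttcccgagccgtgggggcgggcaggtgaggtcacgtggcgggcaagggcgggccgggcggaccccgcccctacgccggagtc
Slc24a3: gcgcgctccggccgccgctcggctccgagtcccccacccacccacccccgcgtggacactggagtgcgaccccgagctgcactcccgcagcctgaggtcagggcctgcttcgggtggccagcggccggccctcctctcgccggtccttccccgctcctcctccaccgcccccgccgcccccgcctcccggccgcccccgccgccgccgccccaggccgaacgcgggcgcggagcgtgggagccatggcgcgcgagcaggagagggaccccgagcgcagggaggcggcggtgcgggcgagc
Slc12a4: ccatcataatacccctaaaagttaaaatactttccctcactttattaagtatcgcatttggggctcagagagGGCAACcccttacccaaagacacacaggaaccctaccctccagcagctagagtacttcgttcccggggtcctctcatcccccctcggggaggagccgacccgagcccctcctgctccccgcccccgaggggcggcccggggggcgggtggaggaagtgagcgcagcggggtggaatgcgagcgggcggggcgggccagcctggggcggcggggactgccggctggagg

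Sodium-proton exchangers of the plasma membrane, Golgi and endosomes had different profiles. By the 1-unit rule, 2 of the 9 Slc9a members were higher in club cells than in both other types, against 1.47% of all genes. Slc9a4 (NHE4), a plasma membrane exchanger best known from the basolateral membrane of stomach and kidney epithelium, read 6.41 and 6.47 in basal, 7.03 and 6.94 in ciliated and 9.21 and 9.02 in club cells. It was higher in club than in basal cells by 2.68 ± 0.16 (6.41-fold, adjusted p = 0.000181) and than in ciliated cells by 2.14 ± 0.16 (4.40-fold, adjusted p = 0.000106). Slc9a7 (NHE7), an exchanger of the trans-Golgi network, read 7.10 and 6.32 in basal, 6.91 and 6.35 in ciliated and 9.32 and 9.37 in club cells. Basal and ciliated arrays overlapped, and club cells were higher by 2.63 ± 0.29 (adjusted p = 0.00198) and 2.71 ± 0.29 (adjusted p = 0.000748).

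An endosomal exchanger was highest in basal cells. Slc9a9 (NHE9) read 9.32 and 9.31 in basal, 7.53 and 7.93 in ciliated and 8.14 and 8.47 in club cells. Basal cells were higher than ciliated cells by 1.58 ± 0.20 (2.99-fold, adjusted p = 0.00135) and than club cells by 1.01 ± 0.20 (adjusted p = 0.0234), and the latter ended without basal replicate 2 (adjusted p = 0.0572), club replicate 1 (adjusted p = 0.147) or club replicate 2 (adjusted p = 0.0527). Slc9a8 (NHE8) was higher in club than in ciliated cells by 0.82 ± 0.17 (adjusted p = 0.0176), at 9.42 and 9.70 against 8.64 and 8.85, and ended without either ciliated array or club replicate 2. The apical exchanger Slc9a3 (NHE3) of gut and kidney stood at 4.79 to 5.41 on the 6 arrays and passed in no comparison.

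Anion exchangers of the Slc26a family contributed 1 called gene among 11 members, against 24% of all genes called in at least 1 comparison. Slc26a9, an anion carrier that conducts chloride in airway epithelium, read 6.41 and 6.58 in basal, 7.45 and 7.53 in ciliated and 6.73 and 6.73 in club cells. Ciliated arrays lay above all others, by 0.99 ± 0.15 against basal (adjusted p = 0.00365) and 0.76 ± 0.15 against club cells (adjusted p = 0.0141). The comparison with club cells ended without either ciliated or either club array (adjusted p = 0.0735 to 0.104). Of the 10 others, 9 stayed under 7 log2 units on every array, pendrin (Slc26a4) at 4.41 to 4.69 and the gut chloride exchanger Slc26a3 at 4.03 to 4.19. The sulfate carrier Slc26a2 read 10.52 and 8.59 on the basal arrays, 10.74 and 10.36 in ciliated and 10.64 and 10.37 in club cells. Its difference of 0.995 between ciliated and basal cells was the largest among uncalled carriers and did not pass (adjusted p = 0.302), with the 2 basal arrays further apart than that.

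Of 5 phosphate carriers, Slc34a2 was called higher in club cells and Slc20a2 higher in basal than in ciliated cells, and 3 were not called. Over all genes, 24% were called in at least 1 comparison. Slc34a2 (NaPi-IIb), the sodium-phosphate cotransporter known for phosphate uptake in alveolar type 2 cells, read 5.86 and 5.86 in basal, 6.20 and 6.36 in ciliated and 7.83 and 9.05 in club cells. Club arrays were the highest and lay more than 1 unit apart. Club exceeded basal cells by 2.58 ± 0.35 (5.97-fold, adjusted p = 0.00521) and ciliated cells by 2.16 ± 0.35 (4.47-fold, adjusted p = 0.00569), the latter ending without ciliated replicate 1 (adjusted p = 0.0603) or 2 (adjusted p = 0.0517). Of 5 alveolar type 2 markers, Sftpb and Abca3 were called higher in club than in basal cells. The surfactant gene Sftpc, the defining marker, was at 5.27 and 5.47 in club cells, 5.21 and 5.27 in basal cells and 9.17 and 8.36 in ciliated cells, and Lamp3 was at 3.87 to 4.23 on all 6 arrays. The mean of the list was 7.25 and 7.49 in club, 7.60 and 7.46 in ciliated and 6.62 and 6.67 in basal cells, and its part in the Slc34a2 difference was not tested. The kidney cotransporters Slc34a1, at 6.31 to 6.93 on the 6 arrays, and Slc34a3, at 6.39 to 6.65, passed in no comparison. The broadly expressed retrovirus-receptor carriers were Slc20a1, at 9.78 and 8.49 in basal and 8.80 to 9.61 in the other cells with no call, and Slc20a2. Slc20a2 was higher in basal than in ciliated cells by 0.75 ± 0.19 (adjusted p = 0.0369), at 9.56 and 9.55 against 8.70 and 8.92, a call lost on leaving out any one of these 4 arrays and with an intensity trend in the variance prior.

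An iron importer and a zinc importer were higher in both ciliated and club (luminal) cells than in basal cells. Slc11a2 (DMT1), which brings ferrous iron and other divalent metals into the cytosol, read 8.51 and 8.28 in basal, 10.03 and 10.20 in ciliated and 9.80 and 10.06 in club cells. It was higher than in basal cells by 1.72 ± 0.18 in ciliated (3.30-fold, adjusted p = 0.000467) and 1.54 ± 0.18 in club cells (2.90-fold, adjusted p = 0.00231), and the ciliated and club arrays overlapped. Slc39a4 (ZIP4), the zinc importer of the intestinal brush border, read 10.02 and 10.22 in basal, 11.99 and 12.22 in ciliated and 11.54 and 12.18 in club cells. Its differences from basal cells were 1.98 ± 0.23 (3.96-fold, adjusted p = 0.001) and 1.73 ± 0.23 (3.33-fold, adjusted p = 0.005). With Slc4a5, these were the 3 carriers called higher in both luminal types than in basal cells, and Slc9a9 and Slc12a4 were the 2 called lower in both. Both comparisons share the basal arrays. Of 7 ionocyte markers, Ascl3 was the 1 called higher in both luminal types, at 7.68 and 7.63 in ciliated and 8.06 and 7.51 in club against 6.67 and 6.68 in basal cells, while the defining marker Foxi1 was at 5.73 to 6.46 on all 6 arrays. The list's mean was 6.78 and 6.36 in ciliated, 6.50 and 6.27 in club and 5.97 and 6.11 in basal cells. The gland markers Lyz1 and Bpifb1 were also called higher in both luminal types. The part of these cell types in the Slc11a2 and Slc39a4 differences was not tested.

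The iron exporter Slc40a1 (ferroportin) was at 5.74 to 5.88 on all 6 arrays and passed in no comparison. Slc11a1 (NRAMP1), an iron carrier of macrophage phagosomes, was higher in basal than in club cells by 0.83 ± 0.20 (adjusted p = 0.0486), at 7.11 and 7.12 against 6.43 and 6.15. That call too was lost on leaving out any basal or club array, under each other scaling and in a fit of those 2 types alone. The leukocyte genes Laptm5 and Adgre1 were the 2 of 8 leukocyte markers called lower in club than in basal cells. Laptm5 was at 7.45 and 7.36 in basal, 6.11 and 6.02 in ciliated and 5.86 and 6.09 in club cells. Both markers were also called lower in ciliated than in basal cells. Slc11a1, at 7.17 and 6.73 in ciliated cells, was not called in that comparison. The macrophage gene Lyz2, also an epithelial lysozyme gene, was called higher in club cells, and Ptprc was at 5.17 to 5.68 on all 6 arrays. The mean over the 8 markers was 7.05 to 7.17 on the basal and 7.06 and 7.10 on the club arrays, and its part in the Slc11a1 difference was not tested.

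Among the 14 ZIP carriers, 8 were called in at least 1 comparison (against 24% of all genes), Slc39a4 among them. Slc39a8 (ZIP8), an importer of zinc and manganese, belonged to club cells, at 9.54 and 10.05 against 6.99 and 6.85 in basal and 7.42 and 7.01 in ciliated cells. Club exceeded basal cells by 2.87 ± 0.22 (7.32-fold, adjusted p = 0.000515) and ciliated cells by 2.58 ± 0.22 (5.98-fold, adjusted p = 0.000269). Slc39a9 (ZIP9) was higher in ciliated cells, at 11.10 and 11.24, than in basal cells at 9.65 and 9.74 (by 1.48 ± 0.18, 2.78-fold, adjusted p = 0.00128). It was also called above the club arrays at 10.07 and 10.47 (by 0.90 ± 0.18, adjusted p = 0.0152), which ended without either ciliated array or club replicate 1 (adjusted p = 0.0742 to 0.118). Slc39a6 (ZIP6) read 7.59 and 6.83 in basal, 8.47 and 8.30 in ciliated and 7.26 and 7.54 in club cells. Its difference of 1.18 ± 0.26 from basal cells (adjusted p = 0.0184) ended without ciliated replicate 1 (adjusted p = 0.128) or 2 (adjusted p = 0.0956). Its difference of 0.99 ± 0.26 from club cells (adjusted p = 0.0423) ended without any ciliated or club array (adjusted p = 0.0895 to 0.226), with quantile normalization applied again (adjusted p = 0.0582) and with arrays centred on their median (adjusted p = 0.0637).

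The other 4 called ZIP genes ran the opposite way. Slc39a1, Slc39a3, Slc39a10 and Slc39a13 were lower in ciliated than in basal cells by 1.61-fold to 1.92-fold, and each of these calls ended without either ciliated array. Those of Slc39a1, Slc39a3 and Slc39a13 also ended without basal replicate 2, and that of Slc39a10 without basal replicate 1. Cyclic loess ended the calls of Slc39a3 and Slc39a10, and an intensity trend in the variance prior or a fit of ciliated and basal arrays alone ended those of Slc39a1, Slc39a3 and Slc39a13. The ciliated minus basal difference was then -0.57 for Slc39a1 and -0.52 for Slc39a13 without basal replicate 2, and -0.62 for Slc39a10 without basal replicate 1, against -0.87, -0.82 and -0.94 on 6 arrays. Slc39a10, a plasma membrane importer, had the widest gap, at 8.09 and 8.29 in ciliated against 9.45 and 8.81 in basal cells (adjusted p = 0.028). The 6 uncalled ZIP genes lay between 5.25 and 9.87 on the arrays. Of the 10 ZnT exporters, 2 were called, a share near the 24% of all genes called in at least 1 comparison. Slc30a4 was higher in basal than in ciliated cells by 0.80 ± 0.20 (adjusted p = 0.0299), at 8.62 and 8.47 against 7.89 and 7.62, and Slc30a5, which loads the early secretory pathway with zinc, was higher in club than in ciliated cells by 0.56 ± 0.15 (adjusted p = 0.0467), at 9.09 and 9.17 against 8.53 and 8.62. The Slc30a4 call ended without basal replicate 1 or either ciliated array and with cyclic loess (adjusted p = 0.0767). The Slc30a5 call ended without any ciliated or club array, with quantile normalization applied again, with cyclic loess, with dim genes left out and with an intensity trend in the variance prior (adjusted p = 0.0545 to 0.219). The 8 uncalled exporters lay between 4.72 and 9.20 and differed by at most 0.66.

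**Figure D4:**
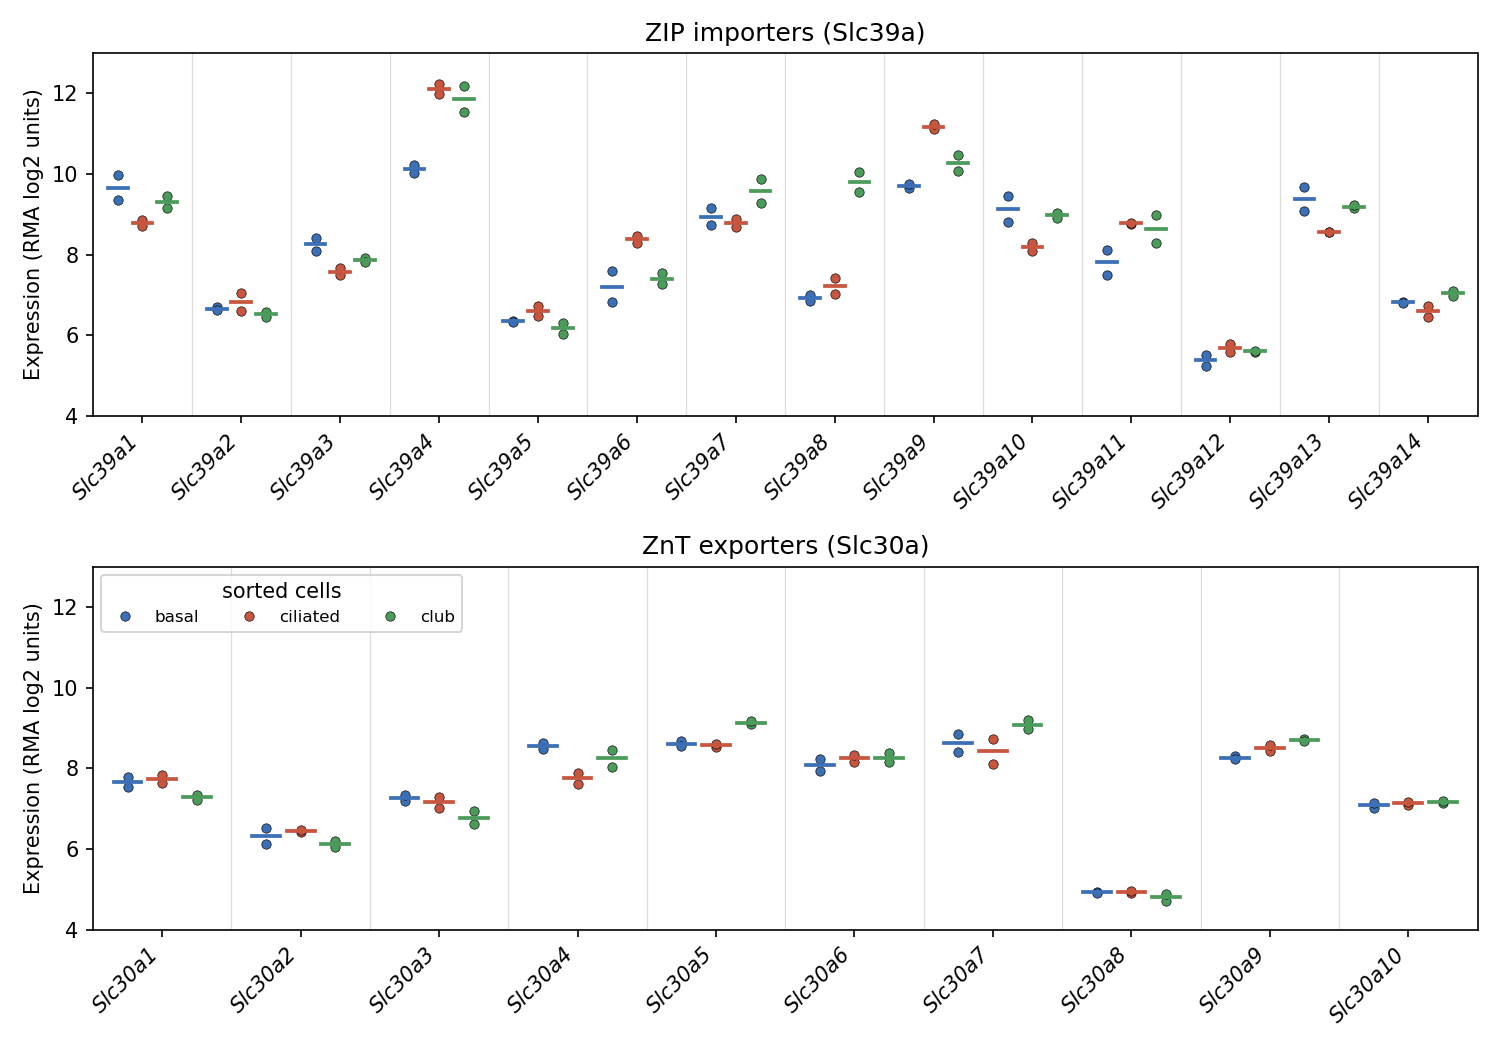
Expression (vertical axis, RMA log2 units) of the 14 ZIP importers (Slc39a) and 10 ZnT exporters (Slc30a) on each array (points), with the mean of 2 arrays as a bar and the sorted cell type as colour. Slc39a4 is lowest in basal cells, Slc39a8 is highest in club cells and Slc39a9 in ciliated cells, while most exporters have the 3 types close together.

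Magnesium carriers gave 2 called genes among 3, against 24% of all genes called in at least 1 comparison. Slc41a2 read 6.58 and 6.66 in basal, 6.64 and 6.41 in ciliated and 7.55 and 8.31 in club cells. Club exceeded basal cells by 1.31 ± 0.26 (2.48-fold, adjusted p = 0.0225) and ciliated cells by 1.40 ± 0.26 (2.64-fold, adjusted p = 0.00943). The first ended in a fit of the club and basal arrays alone (adjusted p = 0.063) and without club replicate 2, and the second without ciliated replicate 1 or 2. Slc41a3 was higher in basal than in club cells by 0.71 ± 0.16 (adjusted p = 0.0445), at 8.19 and 8.15 against 7.55 and 7.37. That call was lost on leaving out any basal or club array and under each other scaling. It was also lost with dim genes left out, with an intensity trend in the variance prior and in a fit of those 2 types alone. The sodium-magnesium exchanger Slc41a1 stood at 8.98 to 9.33 on the 6 arrays.

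In all, 49 carriers were called in no comparison, and in 43 of them every difference between types was under 0.5 log2 units. Of these 49, 31 stayed under 7 log2 units on every array, against 2 of the 33 that were called (Slc8a1 and Slc24a4). That level lies near the gene medians of the arrays (6.79 to 6.92). The share of all genes under it was not counted, so the split is not shown to be particular to the carriers. The deposited values come without detection calls, so a low value does not show that a gene is absent. No filter on low values was applied, and all 82 carriers were tested.

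Genes that work with these carriers were counted in 6 lists. The lists were chosen with earlier results of these data known, so a count above the share of all genes is description and not a test. The counts stand against 9.29% of all genes called higher and 8.28% lower in ciliated than in basal cells, 4.35% higher and 3.67% lower in club than in basal cells, and 7.46% higher and 7.93% lower in club than in ciliated cells. The list for chloride and bicarbonate secretion held 18 genes, including the epithelial sodium channel genes Scnn1a, Scnn1b and Scnn1g. Of these 18, 6 were higher in club than in basal cells and none lower, and 5 were higher and 1 lower in club than in ciliated cells. In ciliated minus basal, 4 were higher and 1 lower. Scnn1b and Scnn1g were among those higher in club cells in both comparisons, and Scnn1a among those higher in ciliated than in basal cells. The median difference of the list was 0.47 in club minus basal, against -0.060 over all genes. It was 0.20 in ciliated minus basal (all genes -0.022) and -0.08 in ciliated minus club (all genes 0.044). The calcium-activated chloride channel gene Ano1 was at 11.41 in club, 9.98 in basal and 8.19 in ciliated cells, and club exceeded ciliated cells by 3.22 ± 0.26 (adjusted p = 0.000175). The potassium channel subunit gene Kcne3 was higher in club than in ciliated cells by 2.70 ± 0.52 (adjusted p = 0.0117). Of 16 sodium-potassium and calcium pump genes, 2 were higher and 3 lower in ciliated than in basal cells and 2 higher and 1 lower in club than in basal cells. They include the calcium pump gene Atp2a3, higher in club than in ciliated cells by 2.23 ± 0.28 (adjusted p = 0.0015), and the pump regulator gene Fxyd5, at 7.94 in basal and 6.00 in club cells (adjusted p = 0.00205).

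Of 21 regulators and anchors of the carriers, 4 were higher and none lower in ciliated than in basal cells, 3 were higher and none lower in club than in basal cells, and 6 were higher and 3 lower in club than in ciliated cells. Slc9a3r1 (NHERF1), a scaffold that holds exchangers at the apical membrane, was higher in ciliated than in basal cells by 2.27 ± 0.29 (adjusted p = 0.00161). Ahcyl2, a regulator of sodium bicarbonate cotransport, was higher in club than in ciliated cells by 2.12 ± 0.30 (adjusted p = 0.00301). Stk39 (SPAK), the kinase that activates Slc12a2, was chosen after its values were seen. It read 8.0 and 7.82 in basal, 7.43 and 7.38 in ciliated and 9.04 and 8.93 in club cells, and was called higher in club than in basal by 1.07 (adjusted p = 0.0069) and than in ciliated cells by 1.58 (adjusted p = 0.000492).

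Of 20 measured iron-handling genes, 7 were higher and 1 lower in club than in basal cells, and 8 were higher and none lower in club than in ciliated cells. Lcn2, the siderophore-binding lipocalin, was higher in club than in basal cells by 4.47 ± 0.40 (adjusted p = 0.000805), and the ferroxidase gene Cp by 3.66 ± 0.32 (adjusted p = 0.000749). Of 15 genes for zinc, copper and manganese handling, 3 were higher and none lower in ciliated than in basal cells (Atp7b, Slc31a1 and Mtf1). Against club cells, 3 were also higher and none lower in ciliated cells (Mt1, Mt2 and Mtf1), so that the groups share only Mtf1. In club minus basal, 2 were higher and 2 lower. Ciliated exceeded basal cells by 2.38 ± 0.20 in the copper pump gene Atp7b (adjusted p = 0.00015) and by 1.74 ± 0.22 in the copper importer gene Slc31a1 (adjusted p = 0.00131). The 2 that were lower in club than in basal cells were the zinc-binding metallothioneins Mt1 and Mt2, chosen after their values were seen. Mt2 read 13.17 and 13.29 in basal, 13.21 and 13.48 in ciliated and 11.71 and 11.85 in club cells. Of 15 genes for magnesium and phosphate handling, 3 were higher and none lower in ciliated than in basal cells, and 3 were higher and 1 lower in club than in basal cells. Nipa1, of a magnesium carrier family, was higher in ciliated than in club cells by 2.49 ± 0.20 (adjusted p = 0.000196), and Magt1 was higher in club than in ciliated cells by 1.21 ± 0.18 (adjusted p = 0.00399). List medians in club minus basal were -0.07 for the pumps, 0.41 for the regulators and 0.31 for iron handling. They were -0.10 for zinc, copper and manganese and 0.10 for magnesium and phosphate, against -0.060 over all genes.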

How the data were processed

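RNA of 6 sorted samples (2 per cell type) was hybridised to Affymetrix arrays, per the labels' protocols. The submitters' processing notes name RMA without a version; for platform, genome build and probe set annotation nothing is given in the sources used here. Per array and gene symbol, the authors deposited 1 RMA log2 expression value, together with means and a z-score of enrichment per cell type (a score per the file headers, not used here), and a matrix of 35556 probe sets. All 82 carriers took their 6 values from 1 probe set each, within 1e-06 log2 units. The 1 row without a symbol was left out, as were 18 columns of another study.

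A linear model with 1 coefficient for each cell type was fitted to 20315 genes on 6 arrays in limma 3.58.1 (R 4.3.3), with empirical Bayes variances, no further normalization and no filter. Code was tested on simulated data. All 82 symbols were current in the RefSeq gene table of GRCm38.p6. No detection calls are given and the number of arrays limits the precision. Carriers that passed with a difference of at least 1 log2 unit are given array by array, with the member of highest mean level in each family and the 2 largest called differences of each partner list; further genes are named to show the other members. Some carriers are counted but not reported singly here. The members and lists were chosen with earlier results of these data known. Alternatives covered scaling, a filter on dim genes, the variance prior, the arrays fitted, the replicate number as a block, genes of mixed probe sets (236 genes) and each array left out.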

Additional observations from a re-analysis of the deposited data

How the results depend on the processing

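Of the 54 called differences of the carriers, 25 passed under all 14 alternatives that tested them and none changed sign. Another 15 were lost only when an array was left out. Left-out arrays gave 7 to 12 carriers higher and 2 to 7 lower in ciliated minus basal (11 and 9 with all arrays), 8 to 12 higher and 1 to 2 lower in club minus basal (10 and 5) and 2 to 8 higher and 5 to 15 lower in ciliated minus club (7 and 12). The carriers higher than in both other types numbered 1 to 2 for basal, 2 to 4 for ciliated and 5 to 8 for club cells. These fits hold fewer arrays, and a lone array is assumed to vary like the other types. In a comparison without the type of the lone array, the fit is the same as that of the 2 types alone, so the 14 alternatives are not all separate tests. Carriers lower in club minus basal numbered 3 with quantile normalization applied again and 2 with cyclic loess, with arrays centred on their median, with genes below the median level left out (42 carriers tested) and with only the club and basal arrays, against 5. Carriers lower in ciliated minus basal numbered 5 with an intensity trend in the variance prior, against 9. Carriers higher in basal than in both others numbered 1 with cyclic loess and with centred arrays, against 2. Apart from the filter and the smaller fits, the cause was not tested. Over all genes, the 1629 calls of club minus basal became 1050 with only those 2 types. Left-out arrays gave 783 to 2534 there, 1907 to 3807 in ciliated minus basal (3570 with all arrays) and 1587 to 3978 in ciliated minus club (3126). With the replicate number as a block, all 54 calls were kept and 5 were gained: 12 higher and 9 lower between ciliated and basal cells, 11 and 5 between club and basal cells, 8 and 14 between ciliated and club cells. Same-numbered arrays of different types deviated together with correlations of 0.052, 0.265 and 0.260, so the numbers were not taken as pairs.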
